A study of Mus musculus with 16 samples.

Results

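The response of the left ventricle to pressure overload was measured in control mice by comparing 4 libraries made after transverse aortic constriction (WT TAC) with 4 libraries made after sham surgery (WT sham). Transverse aortic constriction narrows the aorta, so that the left ventricle has to eject blood against a higher pressure, and sham surgery leaves the aorta open. These 8 libraries are all those that the labels place in both WT groups, out of 16 in the series. The other 8 libraries come from mice in which Tfeb was knocked out in cardiomyocytes, 4 after sham surgery (cKO sham) and 4 after constriction (cKO TAC), and they enter below only as a comparison. All mice were of the strain C57/BL6N, and the libraries of a group are described as biological replicates. The sources used here give no age, sex, time after surgery or Cre line, and they do not say whether the WT mice carried a floxed allele or a Cre transgene.

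Under sustained pressure cardiomyocytes enlarge and raise genes that the ventricle otherwise uses before birth, among them natriuretic peptides, the slow myosin heavy chain and skeletal actin. Cardiac fibroblasts divide, take on an activated state and lay down collagen-rich matrix, while macrophages are recruited and expand. The overloaded heart is also known for using less fatty acid, the main fuel of the healthy adult heart, and for changes in calcium cycling and in the potassium currents that end each action potential.

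Bulk RNA sequencing of ventricular tissue gave 12946878 to 16347388 counts per WT library. Levels are given as counts per 1000000 (CPM), scaled by the library total times a TMM factor, which corrects for differences in composition. Mitochondrially encoded genes took 23.5% ± 2.12 (SD, n = 4) of counts in WT sham and 19.8% ± 2.24 in WT TAC, and the 10 highest genes took 27.3% ± 1.64 and 23.6% ± 2.00. Neither difference passed an exact two-sided permutation test of 4 against 4 libraries (p = 0.0857 and 0.0571, adjusted p over 6 library properties 0.171 for both; the smallest p this test can give is 0.0286). Tfeb itself was at 30.9, 37.4, 40.1 and 37.6 CPM in WT sham against 39.99, 34.6, 20.6 and 21.1 CPM in WT TAC and between 9.11 and 14.7 CPM in the 8 cKO libraries, so that each WT library lay above each cKO library. Atrial transcripts were not spread evenly: Myl7, the atrial light chain, took 869 CPM in WT sham 3 and 345 CPM in WT TAC 4 (CPM without TMM factors), 84.7 and 44.0 CPM in WT sham 2 and WT sham 4, and at most 4.53 CPM in the other 4 WT libraries. Where a list count changes by over 1.5 times without WT sham 3 and WT TAC 4, and the larger count is at least 3, this is said beside it.

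Of 15206 genes tested, 1475 were higher in WT TAC than in WT sham and 934 were lower at an adjusted p under 0.05 (edgeR quasi-likelihood test, Benjamini-Hochberg adjustment), which is 9.70% higher and 6.14% lower of all genes tested. Rises were larger than falls. The median fold change was 1.72 among higher genes and 1.45 among lower genes, and 535 higher genes (36.3%) but 131 lower genes (14.0%) changed over 2-fold. Over 4-fold there were 171 higher and 9 lower genes, and over 8-fold 44 higher and no lower genes. The 4 WT TAC libraries lay entirely above the 4 WT sham libraries for 1259 of the 1475 higher genes and entirely below them for 737 of the 934 lower genes; over all genes tested these shares were 11.0% above and 8.44% below. The split between directions rests on the scaling: higher genes made up 61.2% of calls with TMM factors and 83.4% (2170 higher, 432 lower) with library totals alone, which move the median log2 fold change of all genes from -0.01 to 0.11.

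Among called genes WT TAC 1 was most often the extreme TAC library. It held the highest WT TAC value for 955 (64.7%) of the higher genes and the lowest for 653 (69.9%) of the lower genes, against 28.5% and 28.8% over all tested genes. The genes were called in a fit that includes WT TAC 1, so the shares over all tested genes are not a matched reference. Without WT TAC 1, 897 genes were higher and 337 lower, and 1220 of the 2409 called genes passed again. All 2409 kept their sign, in a fit that shares every other library with the main one. Leaving out WT sham 4 left 588 lower genes. In each of the 8 fits that left out 1 WT library, 833 of the higher and 296 of the lower genes passed; counts that pass in every one of these fits are given below as a measure of how far a list depends on single libraries.

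**Figure D1:**
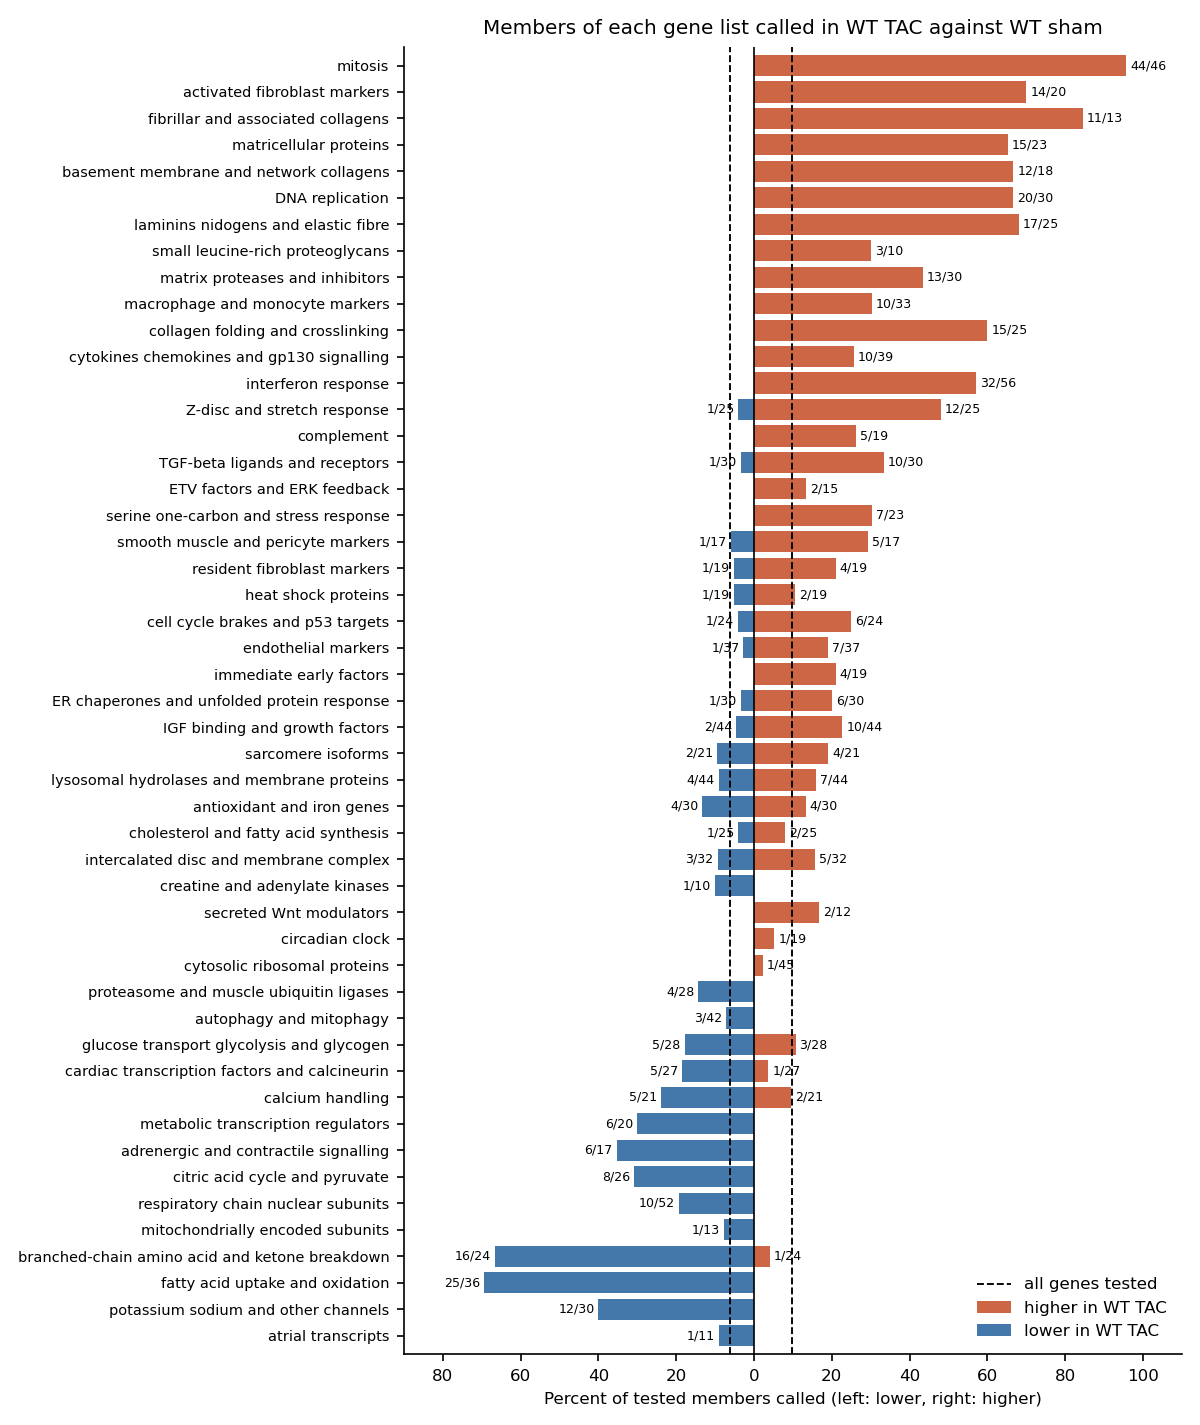
Share of the tested members of each gene list that were called higher (right) or lower (left) in WT TAC than in WT sham, in percent, for lists with at least 10 tested members, ordered by median log2 fold change; labels give called over tested members. Dashed lines mark the shares over all genes tested, 9.70% higher and 6.14% lower, and mitosis (44 of 46 higher) and fatty acid uptake and oxidation (25 of 36 lower) lie near the opposite ends.

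Genes of mitosis had the largest share of higher members among the lists with at least 10 tested genes. Of 46 tested genes of mitosis, 44 were higher in WT TAC, with a median log2 fold change of 2.59 over the list against -0.01 over all genes tested, and 43 of them passed in every fit that left out 1 WT library. Of 30 genes of DNA replication 20 were higher (17 in every such fit), with a median log2 fold change of 0.99. None of either list was lower. Promoters of these genes often carry a CHR element, read by the DREAM and B-MYB complexes in dividing cells, or an E2F site. Among RefSeq promoter windows of GRCm38.p6, the 250 bases before the start of transcription held the CHR letters TTTGAA on either strand in 16 of 42 windows of mitosis genes (38.1%; 40 of 46 genes matched) and in 10.8% of the 13878 windows of tested genes. Of all 32851 windows 16.0% held these letters. The letters of an E2F core, TTTNNCGC on either strand, stood in 7 of 28 windows of replication genes (25%; 24 of 30 genes matched), in 6.6% of the windows of tested genes and in 4.28% of all windows. A match of letters describes the sequence and does not show that a factor binds there. The 4 windows below belong to members with multiple matches among those described next, with the matched letters in capitals. Mki67, Cdk1 and Top2a show the CHR letters, and Mcm6 shows 3 E2F cores, of which 2 overlap on opposite strands. The windows lie at chr7:135716380-135716629, chr10:69352913-69353162, chr11:99024190-99024439 and chr1:128359706-128359955, all on the minus strand, in RefSeq's GRCm38.p6, whereas the counts were made on GRCm39; each line reads 5′ to 3′ towards the start of the gene.
Mki67: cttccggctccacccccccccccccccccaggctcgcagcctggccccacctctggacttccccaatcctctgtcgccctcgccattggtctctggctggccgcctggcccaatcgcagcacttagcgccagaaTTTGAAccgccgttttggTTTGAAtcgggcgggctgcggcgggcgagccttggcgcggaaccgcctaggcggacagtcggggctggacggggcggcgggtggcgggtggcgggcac
Cdk1: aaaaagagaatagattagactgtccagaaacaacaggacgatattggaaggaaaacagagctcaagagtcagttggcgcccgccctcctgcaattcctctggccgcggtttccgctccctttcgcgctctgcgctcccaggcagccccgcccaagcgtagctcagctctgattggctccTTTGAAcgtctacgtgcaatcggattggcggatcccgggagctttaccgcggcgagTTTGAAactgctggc
Top2a: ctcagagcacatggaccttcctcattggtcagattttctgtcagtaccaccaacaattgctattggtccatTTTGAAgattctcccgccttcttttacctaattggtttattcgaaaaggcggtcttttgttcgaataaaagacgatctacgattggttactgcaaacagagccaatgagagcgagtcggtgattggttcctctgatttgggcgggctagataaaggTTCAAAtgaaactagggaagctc
Mcm6: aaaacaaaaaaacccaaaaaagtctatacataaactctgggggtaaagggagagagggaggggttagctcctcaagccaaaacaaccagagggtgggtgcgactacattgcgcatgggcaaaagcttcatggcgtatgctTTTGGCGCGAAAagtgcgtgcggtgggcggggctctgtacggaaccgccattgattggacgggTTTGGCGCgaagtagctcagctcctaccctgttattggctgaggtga

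Top2a (ENSMUSG00000020914), the topoisomerase that untangles chromosomes before they separate, was at 3.29, 2.46, 3.1 and 2.94 CPM in WT sham against 32.9, 27.4, 22.1 and 15.2 CPM in WT TAC. That is 8.24-fold higher (log2 fold change 3.04 ± 0.25 SE, adjusted p = 6.59e-06). The marker of cycling cells Mki67 (ENSMUSG00000031004) stood at 3.06, 2.76, 3.4 and 5.57 CPM in WT sham against 41.7, 34.8, 27.1 and 22 CPM in WT TAC, a rise of 8.48-fold (log2 fold change 3.08 ± 0.26 SE, adjusted p = 8.21e-06). In both genes the lowest TAC library exceeded the highest sham library several-fold. No overlap was itself a condition for the 20 largest rises, where both genes stand. Cdk1, the kinase that drives entry into mitosis, went from 1.38, 0.821, 1.18 and 1.16 in WT sham to 14.4, 11.1, 6.93 and 6.47 in WT TAC (CPM; log2 fold change 3.08 ± 0.31 SE, adjusted p = 1.32e-05), and its partner cyclin A, Ccna2, from 1.15, 1.12, 1.4 and 1.39 in WT sham to 16.3, 13, 11.7 and 7.46 in WT TAC (CPM; log2 fold change 3.25 ± 0.30 SE, adjusted p = 8.72e-06). The mitotic motor Kif11 rose 5.76-fold, and other members with large rises were Pbk (10.5-fold), the chromosome motor Kif4 (9.91-fold), the spindle checkpoint kinase Aurkb (9.85-fold) and the kinetochore subunit Ndc80 (10.7-fold). Cenpa and Cenpf, which both act at the kinetochore, were the members that did not pass: Cenpa was at 45.9 to 48.3 CPM in WT sham and 38.8 to 64.1 CPM in WT TAC and Cenpf at 12.3 to 35.2 CPM in WT sham and 11.5 to 18.7 CPM in WT TAC. Cenpf stood apart from the rest of the list in that its mean was lower in WT TAC (log2 fold change -0.81 ± 0.34 SE, adjusted p = 0.118); it passed without WT sham 3 and in DESeq2.

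Replication genes had smaller fold changes. Mcm6, a subunit of the replicative helicase, was at 10.1, 9.41, 8.94 and 9.2 CPM in WT sham against 21.5, 21.2, 17.7 and 17.2 CPM in WT TAC. This was 2.06-fold higher (log2 fold change 1.04 ± 0.11 SE, adjusted p = 1.32e-05). Uhrf1, which carries DNA methylation through replication, rose 5.3-fold, thymidine kinase Tk1 3.14-fold and the ribonucleotide reductase subunit Rrm2 3.1-fold. Pclaf, which binds the sliding clamp PCNA and stands among the 20 largest rises in genes of at least 5 CPM but in neither list, rose 8.88-fold. Levels stayed low throughout: among the genes of both lists named here that rose, the highest value was that of Mki67 in WT TAC 1. The mean log2 difference of mitosis members from the WT sham mean was 2.44, 2.19, 1.83 and 1.57 in WT TAC 1 to 4, against -0.145 to 0.134 in the sham libraries. Among genes that set or brake the cycle, 6 of 24 were higher and 1 lower: cyclin D1 (Ccnd1) went from 43.1, 46.7, 56.9 and 54.6 in WT sham to 129.9, 122, 108 and 79.6 in WT TAC (CPM; 2.18-fold, adjusted p = 0.000487), the inhibitor Cdkn2c rose 1.76-fold, cyclin D3 (Ccnd3) 1.36-fold, Trp53 1.41-fold and the p53 target Phlda3 1.91-fold. In bulk tissue more cells of a dividing type and more RNA per cell cannot be told apart, and this holds for every list below.

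**Figure D2:**
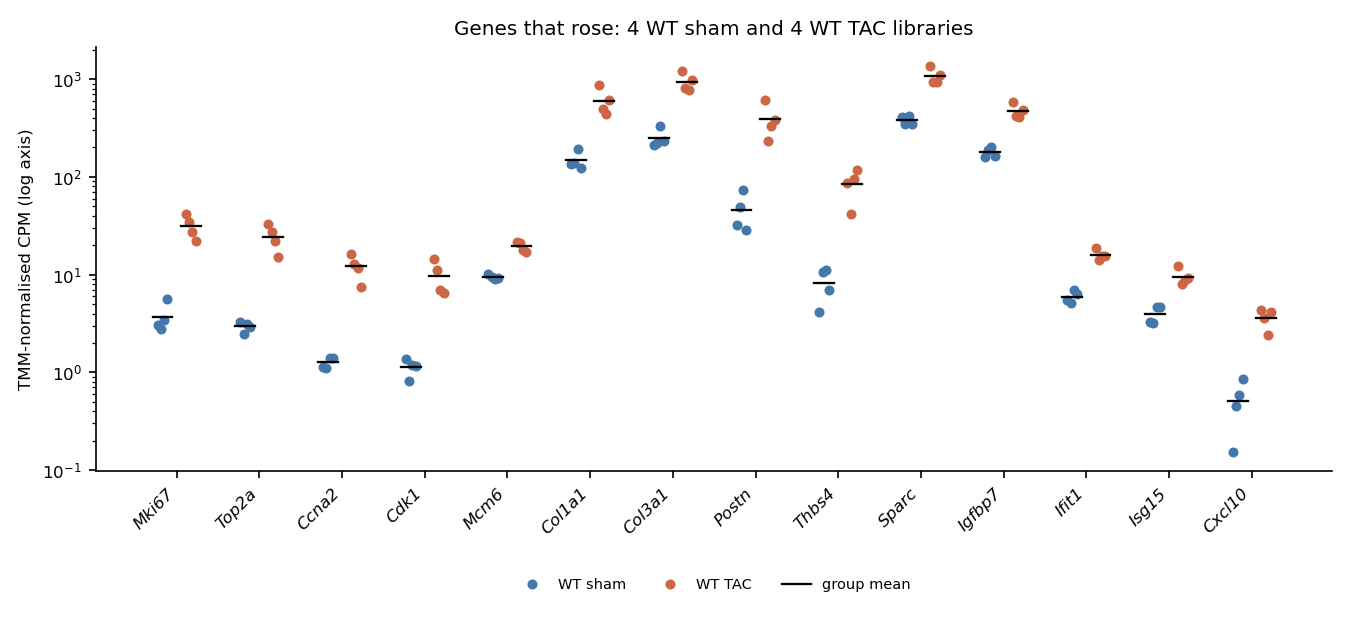
Levels of 14 genes that rose, in TMM-normalised CPM on a log axis, with 1 point per library (WT sham in blue, WT TAC in orange, 4 each) and the group mean as a line. For each gene every WT TAC point lies above every WT sham point, and the step is larger for the cell division genes (Mki67, Top2a, Ccna2, Cdk1) than for Mcm6 or the interferon-response genes Ifit1 and Isg15.

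Genes of the extracellular matrix rose broadly. Of 13 fibrillar and associated collagens 11 were higher (9 in every fit that left out 1 WT library; median log2 fold change 1.71), as were 12 of 18 basement membrane and network collagens (all 12 in every such fit; median 1.18) and 17 of 25 laminins, nidogens and elastic-fibre genes (13; median 0.75). No member of these lists was lower, except that 3 laminin and elastic-fibre genes were lower (14 higher) without WT sham 3 and WT TAC 4. Col1a1 (ENSMUSG00000001506) and Col1a2, the chains of collagen I, were at 134, 139, 194 and 123 CPM in WT sham against 872, 493, 439 and 609.5 CPM in WT TAC, and at 127, 157, 197 and 139.7 CPM in WT sham against 765, 467, 463 and 651 CPM in WT TAC. Both rose about alike, 4.09-fold (log2 fold change 2.03 ± 0.29 SE, adjusted p = 0.000367) and 3.79-fold (log2 fold change 1.92 ± 0.28 SE, adjusted p = 0.000491). Col3a1, the chain of collagen III, was at 214, 223, 332 and 233 CPM in WT sham against 1216, 811, 768 and 978 CPM in WT TAC. It rose 3.76-fold (adjusted p = 0.000695). The share of Col1a1 in the counts of Col1a1 and Col3a1 was 37.1% ± 1.89 in WT sham and 38.6% ± 2.28 in WT TAC (SD, n = 4 each), with overlapping libraries. Collagen V, which nucleates collagen I fibrils, rose 3.13-fold (Col5a1) and 4.19-fold (Col5a2). The fibril-associated collagen Col12a1 had a larger rise from a lower level, from 1.07, 3.96, 3.55 and 1.78 in WT sham to 26.2, 7.26, 20.7 and 27.9 in WT TAC (CPM; 7.9-fold).

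In the basement membrane, Col4a1 was at 469, 588, 734 and 593 CPM in WT sham against 1796, 1301, 1246 and 1077 CPM in WT TAC. Its level rose 2.27-fold (log2 fold change 1.18 ± 0.17 SE, adjusted p = 0.000242). Col18a1, the precursor of endostatin, rose 2.9-fold and had the smallest adjusted p among the collagens (3.32e-05). Chains of the beaded-filament collagen VI rose 2.81-fold (Col6a3) and 2.43-fold (Col6a2), Col15a1 rose 2.75-fold and the network-forming Col8a1 6.36-fold. Fibrillin 1 (Fbn1), the scaffold of elastic microfibrils, rose 3.02-fold, elastin (Eln) 2.97-fold, Ltbp2 7.01-fold, Emilin1 2.33-fold and the vascular laminin chain Lama4 1.49-fold. Of 10 small leucine-rich proteoglycans, which bind collagen fibrils, 3 were higher: biglycan (Bgn) went from 223, 232, 353 and 192 in WT sham to 836, 561, 565 and 862 in WT TAC (CPM; 2.82-fold), Aspn rose 2.97-fold and lumican (Lum) 2.13-fold. Decorin (Dcn) was at 271, 467, 495 and 388 CPM in WT sham against 410.4, 422, 478 and 839 CPM in WT TAC and did not pass (adjusted p = 0.184). Its WT TAC values up to WT TAC 3 fall inside the sham range, and WT TAC 4 is the high library.

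Matricellular proteins, which signal from the matrix and do not build it, included several large rises. Of 23 tested, 15 were higher (11 in every fit that left out 1 WT library) and none lower, with a median log2 fold change of 1.34. Periostin (Postn, ENSMUSG00000027750), made by activated fibroblasts, was at 32.3, 49.6, 73.5 and 28.8 CPM in WT sham against 617, 236, 329 and 384 CPM in WT TAC. The rise was 8.5-fold (log2 fold change 3.09 ± 0.49 SE, adjusted p = 0.00123). Thrombospondin 4 (Thbs4) was at 4.13, 10.7, 11.2 and 7.04 CPM in WT sham against 86.2, 41.8, 96.2 and 118 CPM in WT TAC. This was 10.3-fold higher (log2 fold change 3.37 ± 0.45 SE, adjusted p = 0.000392). In neither gene did the groups overlap, which was a condition for the 20 largest rises, where both stand. The highest sham library of both was WT sham 3. Sparc, a collagen-binding protein, had a smaller but tighter rise, from 413, 346, 420.1 and 349 in WT sham to 1355, 945, 929 and 1096 in WT TAC (CPM; 2.83-fold, adjusted p = 2.99e-05). Tenascin C (Tnc) rose 13.1-fold and fibronectin (Fn1) 3.92-fold. Cthrc1, a secreted marker of matrix-producing fibroblasts, was nearly absent from sham ventricles, with 1, 6, 3 and 2 counts, and had 245, 46, 112 and 168 counts in WT TAC. Its summed CPM ratio was 41.5 (95% interval 23.6 to 80.7, counting error only), and the fitted change was 39.4-fold (adjusted p = 0.000595).

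Enzymes that fold, trim and crosslink collagen rose with it, and so did those that degrade matrix. Of 25 genes of collagen folding and crosslinking 15 were higher (11 in every fit that left out 1 WT library) and of 30 matrix proteases and inhibitors 13 (10 in every such fit), with none lower in either list and medians of 0.57 and 0.71. Lysyl oxidase (Lox), which crosslinks collagen and elastin, was at 4.36, 4.7, 7.24 and 4.1 CPM in WT sham against 63.2, 23.8, 34.3 and 32.8 CPM in WT TAC. It rose 7.54-fold (log2 fold change 2.91 ± 0.50 SE, adjusted p = 0.00214). Loxl2 rose 3.77-fold. The procollagen protease Adamts2 rose 2.93-fold, its enhancer Pcolce 2-fold and the collagen chaperone Serpinh1 1.67-fold. Among proteases, urokinase (Plau) rose 2.5-fold, its receptor Plaur 2.2-fold, the tissue activator Plat 1.74-fold and the membrane protease Mmp14 1.84-fold. Timp1, an inhibitor of metalloproteases, was at 3.9, 2.09, 4.51 and 0.541 CPM in WT sham against 19.5, 15.4, 14 and 15.5 CPM in WT TAC. It rose 5.79-fold (adjusted p = 0.0142).

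Most markers of activated fibroblasts were higher. Of 20 markers 14 were higher and none lower (13 in every fit that left out 1 WT library; median log2 fold change 1.78), and their summed level was 226.6 to 459.0 CPM in WT sham and 806.9 to 1452 CPM in WT TAC; Grem1, a member not tested, was at 0 in all 8 libraries. Of 19 resident fibroblast markers 4 were higher and 1 lower (21.1% and 5.26%, against 9.70% and 6.14% of all genes tested; median 0.28). The number higher was 7 without WT sham 3, in DESeq2 and in limma voom, and 8 with library totals alone. Their sums overlapped, 1771 to 2563 and 1871 to 3153 CPM. Meox1, a transcription factor of activated fibroblasts that stands in both lists, was at 19.5, 16.5, 23.1 and 10.9 CPM in WT sham against 72.3, 50.7, 62.6 and 63.4 CPM in WT TAC. Its level rose 3.56-fold (log2 fold change 1.83 ± 0.26 SE, adjusted p = 0.000415). Ddah1 rose 2.64-fold, Runx1 2.57-fold and Cilp 6.62-fold. Pdgfra, the receptor carried by most cardiac fibroblasts, was at 24.1, 27.8, 35.2 and 30.1 CPM in WT sham against 32.2, 33, 30.4 and 37.4 CPM in WT TAC and did not pass (adjusted p = 0.366); WT sham 3 lay above WT TAC 1 to 3. Hsd11b1, the enzyme that reactivates glucocorticoids, was the resident marker that fell, from 11.8, 14.8, 13.4 and 12.4 in WT sham to 5.71, 7.11, 9.46 and 6.71 in WT TAC (CPM; log2 fold change -0.85 ± 0.19 SE, adjusted p = 0.0055).

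Of 30 TGF-beta ligands, receptors and regulators 10 were higher and 1 was lower (7 and 1 in every fit that left out 1 WT library; median log2 fold change 0.38). TGF-beta 3 (Tgfb3) rose 2.07-fold, from 25.7, 17.6, 26.2 and 17.4 in WT sham to 47.4, 37.7, 38.5 and 56 in WT TAC (CPM), and Tgfb2 2.29-fold. Follistatin-like 1 (Fstl1), a secreted glycoprotein, was at 80.7, 88.5, 154 and 75 CPM in WT sham against 433, 280.1, 309.96 and 343 CPM in WT TAC. Its level rose 3.43-fold (adjusted p = 0.00106). The BMP-family ligand Gdf6 rose 4.76-fold from near 1 CPM. Integrin beta 6 (Itgb6), which releases TGF-beta from its latent complex, fell by 0.87 ± 0.17 SE on the log2 scale, from 20.8, 13.1, 20.8 and 23.6 in WT sham to 9.7, 8.86, 12.8 and 11.4 in WT TAC (CPM; adjusted p = 0.00203). Of 12 secreted Wnt modulators 2 were higher (16.7%, against 9.70% of all genes tested) and none in every fit that left out 1 library.

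Interferon-response genes rose across a broad set, by smaller factors. Of 56 tested, 32 were higher and none lower, with a median log2 fold change of 0.49, and 24 passed in every fit that left out 1 WT library. Many interferon-response genes carry an interferon-stimulated response element (ISRE), read by STAT and IRF factors. What drives the members in these ventricles was not tested. In the 250 bases before the start, the ISRE core, TTTC and TTTC spaced by any 2 bases, was found on either strand in 21 of 51 windows of list genes (41.2%) and in 2.67% of the 13878 windows of tested genes (42 of 56 list genes matched). Of all 32851 windows 2.98% held it. The windows of Ifit1 (chr19:34640639-34640888, plus strand), Isg15 (chr4:156200819-156201068, minus strand) and Cxcl10 (chr5:92348890-92349139, minus strand), again RefSeq's GRCm38.p6 and read towards the gene, are shown because these members had among the smallest p-values. Ifit1 holds 2 cores, Isg15 holds 3 that overlap and read on the opposite strand, and Cxcl10 holds 1 farther from the start.
Ifit1: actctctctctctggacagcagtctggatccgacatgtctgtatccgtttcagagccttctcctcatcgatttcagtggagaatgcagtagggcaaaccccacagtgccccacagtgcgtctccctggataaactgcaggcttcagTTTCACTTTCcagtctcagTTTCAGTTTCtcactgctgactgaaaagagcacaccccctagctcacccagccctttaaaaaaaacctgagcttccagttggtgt
Isg15: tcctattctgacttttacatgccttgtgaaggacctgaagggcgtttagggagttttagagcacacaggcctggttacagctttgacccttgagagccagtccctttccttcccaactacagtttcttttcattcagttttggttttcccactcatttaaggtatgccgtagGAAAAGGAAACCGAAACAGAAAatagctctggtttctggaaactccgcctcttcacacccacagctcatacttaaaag
Cxcl10: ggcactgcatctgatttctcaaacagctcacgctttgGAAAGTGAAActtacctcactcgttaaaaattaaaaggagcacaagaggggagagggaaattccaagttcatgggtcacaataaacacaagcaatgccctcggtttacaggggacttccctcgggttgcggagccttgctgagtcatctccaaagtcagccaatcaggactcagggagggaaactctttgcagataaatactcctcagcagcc

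Ifit1 (ENSMUSG00000034459), which binds foreign RNA, was at 5.51, 5.08, 6.95 and 6.34 CPM in WT sham against 18.9, 14.2, 15.5 and 15.6 CPM in WT TAC. The rise was 2.69-fold (log2 fold change 1.43 ± 0.13 SE, adjusted p = 8.72e-06). Isg15, a ubiquitin-like modifier, was at 3.29, 3.21, 4.66 and 4.64 CPM in WT sham against 12.2, 7.95, 8.87 and 9.16 CPM in WT TAC. This was 2.42-fold higher (adjusted p = 0.000164). The chemokine Cxcl10, which attracts T cells, had the largest fold change of the list, with 0.153 to 0.851 CPM in WT sham and 2.4 to 4.38 CPM in WT TAC (7.01-fold, log2 fold change 2.81 ± 0.36 SE, adjusted p = 7.22e-05). In these 3 genes the groups did not overlap. Others were the antiviral GTPase Mx1 (3.57-fold), the nucleic acid sensor Zbp1 (3.62-fold), Ifit2 (2.17-fold), the kinase Cmpk2 (1.91-fold) and the factor Irf7, which amplifies the response (1.77-fold, from 22.2, 15.3, 16 and 22.3 in WT sham to 45.7, 30.3, 27.8 and 29.9 in WT TAC, CPM). Ifit3 rose 2.32-fold, and its reads may be shared with its close copy Ifit3b.

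Macrophage markers rose in part. Of 33 tested, 10 were higher and none lower (median log2 fold change 0.61), and 5 passed in every fit that left out 1 WT library; without WT sham 4 or without WT TAC 1 the count was 6. The summed level of the list was 516.1 to 741.5 CPM in WT sham and 717.5 to 1021 CPM in WT TAC. Fcgr3, an Fc receptor, was at 12.3, 10.3, 9.68 and 8.12 CPM in WT sham against 19.1, 18.3, 17.4 and 19.5 CPM in WT TAC. It rose 1.84-fold (adjusted p = 0.00323). The mouse macrophage antigen F4/80, Adgre1, was at 7.49, 7.02, 9.38 and 6.88 CPM in WT sham against 17.3, 13.6, 12.8 and 13.8 CPM in WT TAC (1.87-fold), C1qc, a chain of complement C1q made by macrophages, rose 1.69-fold and Ms4a7 3.26-fold. Lyve1, which marks long-lived resident macrophages, was at 12.8, 19.2, 18.3 and 9.98 CPM in WT sham against 11, 20.1, 26.6 and 27.9 CPM in WT TAC and did not pass (adjusted p = 0.189); it passed as higher without WT TAC 1, the lowest TAC library. Of 7 tested markers of neutrophils, lymphocytes and mast cells 1 passed, the stem cell factor receptor Kit, and it lost the call when any 1 of WT sham 1 to 3 or WT TAC 1 to 3 was left out. The sums of this list were 14.6 to 28.5 CPM in WT sham and 21.6 to 28.3 CPM in WT TAC.

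Of 39 cytokine, chemokine and gp130-signalling genes 10 were higher and none lower (median log2 fold change 0.52; 5 in every fit that left out 1 WT library, and 6 without WT sham 4). Socs3, the feedback inhibitor of gp130 receptors, went from 7.11, 7.32, 5.39 and 5.49 in WT sham to 12.1, 21.9, 18.3 and 25 in WT TAC (CPM; 3.05-fold, log2 fold change 1.61 ± 0.22 SE, adjusted p = 0.00017). The receptor of the cytokine TWEAK, Tnfrsf12a, was at 39.6, 68.6, 85 and 33.5 CPM in WT sham against 246, 158, 147 and 117 CPM in WT TAC (2.94-fold), Tnfrsf1a rose 1.53-fold, and the monocyte chemokine Ccl12 3.97-fold from under 1 CPM. Of 19 complement genes 5 were higher (3 in every such fit, and 3 without WT sham 4 or without WT TAC 1), led by Masp1 (1.78-fold) and the anaphylatoxin receptor C3ar1 (2.12-fold).

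Endothelial and mural markers gave a mixed picture. Of 37 endothelial markers 7 were higher and 1 lower (5 and 1 in every fit that left out 1 WT library; median log2 fold change 0.20). Pecam1, carried by all endothelium, was at 164, 173, 183 and 169.7 CPM in WT sham against 245, 246, 229 and 223 CPM in WT TAC. The rise was 1.37-fold (log2 fold change 0.45 ± 0.10 SE, adjusted p = 0.00746). The junction protein Cdh5 rose 1.4-fold. The leukocyte adhesion molecule Sele rose 3.29-fold, with 0.887 to 1.78 CPM in WT sham and 2.86 to 7.03 CPM in WT TAC. Prox1, the lymphatic fate factor that cardiomyocytes also express, fell by 0.85 ± 0.15 SE on the log2 scale, from 52.5, 38.5, 63 and 63.3 in WT sham to 23.7, 30.4, 33.2 and 33.2 in WT TAC (CPM; adjusted p = 0.00083). Of 17 smooth muscle and pericyte markers 5 were higher and 1 lower (median 0.31; without WT TAC 1, 3 were higher, and without WT sham 3, 3 were lower). Mcam was at 69.4, 64.1, 67 and 60.3 CPM in WT sham against 134, 122, 114 and 118 CPM in WT TAC (1.87-fold, log2 fold change 0.90 ± 0.11 SE, adjusted p = 6.98e-05), the pericyte proteoglycan Cspg4 rose 1.79-fold and the contractile protein Cnn1 4.14-fold. Rgs5, an abundant pericyte transcript, was at 417 to 482 CPM in WT sham and 428 to 524 CPM in WT TAC (adjusted p = 0.584).

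Fetal and load-responsive cardiomyocyte genes rose within lists that as a whole changed little. Of 21 sarcomere genes 4 were higher and 2 lower (median log2 fold change 0.11). These are shares of 19% and 9.52%, against 9.70% and 6.14% of all genes tested. The 4 higher genes passed in every fit that left out 1 WT library. Myh7 (ENSMUSG00000053093), the slow myosin heavy chain, was at 361, 448, 291 and 306 CPM in WT sham against 1971, 891, 921 and 1135 CPM in WT TAC. Its level rose 3.5-fold (log2 fold change 1.81 ± 0.28 SE, adjusted p = 0.000703). Myh6, the fast chain of the adult mouse ventricle, was at 26602, 28712, 28207 and 30150 CPM in WT sham against 20844, 26488, 25830 and 24241 CPM in WT TAC; it did not pass (adjusted p = 0.273). Myh7 made up 1.34%, 1.54%, 1.02% and 1.00% of the counts of both genes in WT sham and 8.64%, 3.25%, 3.44% and 4.47% in WT TAC, so that Myh6 stayed the main chain in every library. Skeletal actin (Acta1) was at 498, 97.6, 1084 and 89.8 CPM in WT sham against 7627, 3458, 4504 and 2392 CPM in WT TAC. The rise was 10.2-fold (log2 fold change 3.35 ± 0.75 SE, adjusted p = 0.0107). The groups did not overlap, which was a condition for the 20 largest rises, where Acta1 stands. Sham libraries differed among themselves by over 10-fold, and the call was lost when the 8 WT libraries were fitted alone. Acta1 took 3.59% ± 3.47 of the counts of Acta1 and the near-identical cardiac actin Actc1 in WT sham and 24.9% ± 8.75 in WT TAC (SD, n = 4 each); how reads matching both actins were counted is not stated. The non-muscle actinin Actn1 rose 2.19-fold, from 26.5, 38.9, 35.1 and 29.1 in WT sham to 71.1, 69.3, 61.3 and 82.7 in WT TAC (CPM; adjusted p = 0.000133), and Mybpc2, the fast skeletal form of myosin-binding protein C, 3.92-fold. Cardiac troponin I (Tnni3) was at 7100, 4562, 3516 and 3883 CPM in WT sham against 2378, 3321, 3503 and 2888 CPM in WT TAC (adjusted p = 0.0393) and the cardiac myosin kinase Mylk3 at 517, 635, 618 and 624 CPM in WT sham against 326, 405, 445 and 522 CPM in WT TAC (adjusted p = 0.0135). Neither was stable: Tnni3 lost the call without WT sham 1, WT sham 2, WT TAC 1, WT TAC 2 or WT TAC 4 and Mylk3 without WT TAC 1, and both with library totals alone.

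**Figure D3:**
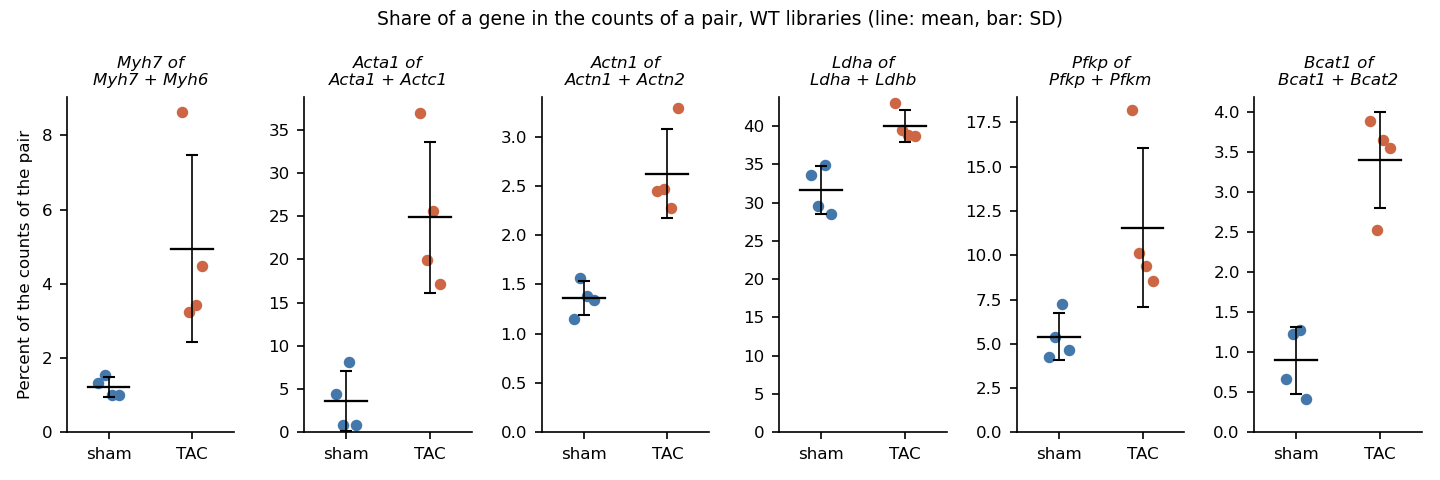
Share of the first gene in the summed counts of a pair of related genes, in percent, for each WT library (points; line, group mean; bar, SD; 4 sham and 4 TAC). In the 6 pairs drawn the TAC libraries lie above the sham libraries without overlap. Mean shares went from 1.23% to 4.95% for Myh7 of Myh7 and Myh6, and from 3.59% to 24.9% for Acta1 of Acta1 and Actc1. Pairs compared but not drawn that overlapped were Slc2a1 with Slc2a4, Hk1 with Hk2 and Cpt1a with Cpt1b. So did Pkm with Pfkm, Col1a1 with Col3a1 and Tnni1 with Tnni3. Hk1 took 39.7% on average in WT sham and 41.3% in WT TAC. Angpt2 with Angpt1, also not drawn, did not overlap. These shares are descriptions without a test.

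Brain natriuretic peptide (Nppb), released by stretched cardiomyocytes, was at 32.4, 101, 223 and 119.8 CPM in WT sham against 707, 459, 458 and 329 CPM in WT TAC. This was 4.1-fold higher (log2 fold change 2.03 ± 0.43 SE, adjusted p = 0.00687). Nppb lost the call when the 8 WT libraries were fitted alone. The atrial peptide Nppa was at 14.1, 49.1, 1221 and 54.8 CPM in WT sham against 642, 162, 250.2 and 533 CPM in WT TAC and did not pass (adjusted p = 0.903). WT sham 3, the library richest in atrial transcripts, held the highest Nppa value of all 8 WT libraries, and without it Nppa passed, with a log2 fold change of 3.33 and an adjusted p of 0.00377. Of 6 genes of natriuretic peptides and their receptors, Nppb was higher, and Corin, the protease that activates them, was lower (log2 fold change -0.50 ± 0.13 SE, adjusted p = 0.0172); Corin lost the call without WT sham 3 or without WT sham 4. The number higher was 2 without WT sham 3, with or without WT TAC 4.

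Of 25 genes of the Z-disc and of the response to stretch, 12 were higher and 1 was lower (8 and none in every fit that left out 1 WT library), with a median log2 fold change of 0.48. Xirp2, an actin-binding protein of the intercalated disc and Z-disc, was at 381, 407, 566 and 366 CPM in WT sham against 2268, 1148, 1214 and 948 CPM in WT TAC. This was 3.24-fold higher (log2 fold change 1.70 ± 0.27 SE, adjusted p = 0.000686). The stretch-responsive ankyrin repeat protein Ankrd1 was at 394, 686, 1384 and 701 CPM in WT sham against 3339.5, 2029, 2376 and 2359 CPM in WT TAC. It rose 3.19-fold (adjusted p = 0.00305). Its relatives Ankrd23 and Ankrd2 rose 2.21-fold and 9.43-fold, the latter from under 1 CPM. In each of these genes WT TAC 1 was the highest library. Synpo2l, a Z-disc protein, went from 174, 192, 231 and 206 in WT sham to 1044, 493, 529 and 402 in WT TAC (CPM; 3.07-fold), the thin-filament assembly protein Nrap rose 1.64-fold, and filamin C (Flnc) 2.04-fold. Rcan1, a regulator of calcineurin, was at 97.7, 115, 126 and 68.3 CPM in WT sham against 406, 226, 232 and 179.9 CPM in WT TAC. Its level rose 2.56-fold (adjusted p = 0.00589). The letters of the M-CAT element CATTCC, read by TEAD factors, stood in 5 of 32 promoter windows of this list (15.6%), in 11.1% of the windows of tested genes and in 12.6% of all windows.

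**Figure D4:**
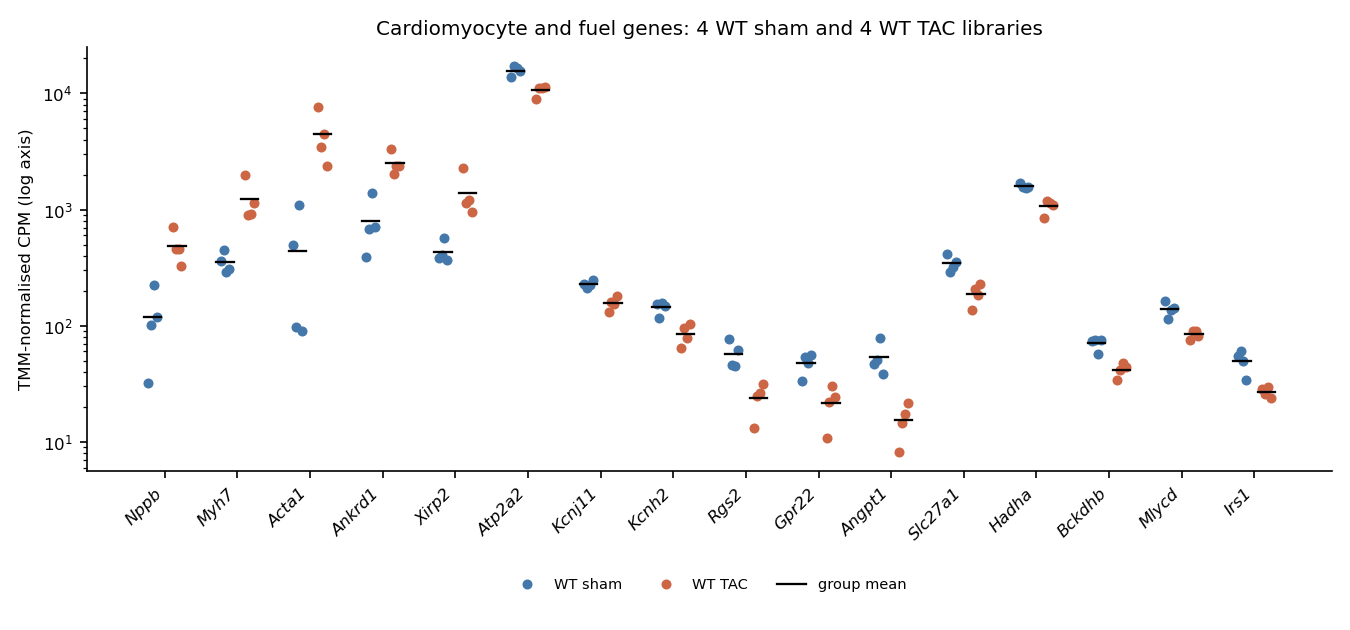
Levels of 16 cardiomyocyte and fuel genes in TMM-normalised CPM on a log axis, with 1 point per library (WT sham in blue, WT TAC in orange, 4 each) and the group mean as a line. Load-responsive genes on the left rose, while the pump Atp2a2, channel, signalling and oxidation genes fell by smaller factors. For each gene shown the groups do not overlap, and genes whose groups overlap, such as Nppa, Ryr2 and Adrb1, are not drawn.

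Called genes of calcium cycling, excitation and adrenergic signalling were mostly lower. Of 30 channel genes 12 were lower and none higher (6 in every fit that left out 1 WT library; median log2 fold change -0.54), and of 17 adrenergic and contractile signalling genes 6 were lower and none higher (4 in every such fit; median -0.26). Without WT TAC 1 there were 6 lower channel genes, and without both libraries rich in atrial transcripts 7 were lower and 1 higher. Of 21 genes of calcium handling 5 were lower (23.8%, against 6.14% of all genes tested) and 2 higher (9.52%, against 9.70%), with a median of -0.20. Of these only the sarcoplasmic reticulum pump Atp2a2 (ENSMUSG00000029467) passed in every such fit. Atp2a2 was at 13820, 17110, 16424 and 15602 CPM in WT sham against 8921, 11090, 11150 and 11379 CPM in WT TAC. The fall had a log2 fold change -0.57 ± 0.13 SE, adjusted p = 0.00691. The other 4 lower genes, Hrc, Trdn, Cacna1c and Pln, had adjusted p from 0.0218 to 0.0462; the number of lower genes in the list was 1 without WT TAC 1, 2 without WT sham 2, WT sham 4 or WT TAC 2, 3 without WT sham 1, and 2 with library totals alone. Ryr2, the calcium release channel, was at 1041, 1163, 1412 and 1345 CPM in WT sham against 967, 1025, 1083 and 1041 CPM in WT TAC and did not pass (adjusted p = 0.0622), except without WT sham 1 and in DESeq2.

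Potassium channel subunits made up most of the channel genes that fell. Among them were subunits of ATP-sensitive channels: the pore Kcnj11 went from 229, 213, 225 and 247 in WT sham to 130.1, 159, 153 and 179 in WT TAC (CPM; log2 fold change -0.56 ± 0.11 SE, adjusted p = 0.00245) and the sulfonylurea receptor Abcc8 from 59.3, 59.9, 76.1 and 73.6 in WT sham to 32, 38.3, 37.4 and 54.4 in WT TAC (CPM; log2 fold change -0.73 ± 0.14 SE, adjusted p = 0.00244). Kcnh2, which carries the rapid delayed rectifier current, was at 155, 116, 156 and 149 CPM in WT sham against 63.6, 96.4, 78.3 and 102 CPM in WT TAC (log2 fold change -0.76 ± 0.18 SE). The background channel Kcnk3, also known as TASK-1, fell by 0.62 ± 0.13 SE on the log2 scale and the inward rectifier Kcnj12 fell by 0.50 ± 0.12 SE. Kcnv2, a silent subunit that modifies other potassium channels, had the largest fall of the list, from 17.3, 19.2, 10.6 and 23.8 in WT sham to 1.99, 4.13, 9.84 and 5.83 in WT TAC (CPM; log2 fold change -1.69 ± 0.38 SE, adjusted p = 0.00787); WT TAC 3 lay close to the lowest sham library. Kcnj12 lost the call without both libraries rich in atrial transcripts.

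In adrenergic signalling, Rgs2, which limits signalling through Gq, was at 76.9, 45.7, 44.6 and 62.2 CPM in WT sham against 13.2, 24.8, 26.2 and 31.2 CPM in WT TAC. This gave a log2 fold change -1.26 ± 0.22 SE, adjusted p = 0.00161. The cAMP phosphodiesterases Pde4d and Pde3a had log2 fold changes of -0.75 ± 0.14 and -0.60 ± 0.12 (SE), and Maob, which degrades monoamines, fell by 0.87 ± 0.18 SE on the same scale. Pde3a was at 112, 98.5, 99.3 and 115 CPM in WT sham against 51.8, 78.2, 73.2 and 76.7 CPM in WT TAC. Adrb1, the main beta receptor of cardiomyocytes, was at 34.4, 17.9, 28.4 and 37.4 CPM in WT sham against 23.9, 30.1, 18.1 and 14.2 CPM in WT TAC and did not pass (adjusted p = 0.188), except without WT sham 2. Among 27 cardiac transcription factors and calcineurin genes 5 were lower and 1, Rcan1, higher (median -0.19; 2 and 1 in every fit that left out 1 WT library; 8 lower without WT sham 3, 9 without WT sham 3 and WT TAC 4, 3 without WT sham 4 or WT TAC 1, and 2 with library totals alone). Meis1, a homeobox factor that holds cardiomyocytes out of the cell cycle, was at 23.5, 23.4, 26.9 and 31.2 CPM in WT sham against 14.9, 14.4, 16.8 and 18.6 CPM in WT TAC (log2 fold change -0.69 ± 0.11 SE, adjusted p = 0.000365), and the class II deacetylase Hdac5 fell by 0.45 ± 0.10 SE on the log2 scale.

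Other genes with large falls stood apart from these lists. Angiopoietin 1 (Angpt1), a ligand that stabilises vessels, was at 46.6, 50.2, 78.7 and 38.5 CPM in WT sham against 8.17, 14.7, 17.4 and 21.8 CPM in WT TAC. Its level fell, with a log2 fold change -1.78 ± 0.32 SE, adjusted p = 0.00208. Each TAC library was under the lowest sham library, which was WT sham 4. No overlap was a condition for the 20 largest falls, where Angpt1 stands. The orphan receptor Gpr22, which couples to Gi, was at 33.5, 53.7, 47.9 and 55.7 CPM in WT sham against 10.7, 22.1, 30.1 and 24.3 CPM in WT TAC (log2 fold change -1.13 ± 0.25 SE); it stands in the list of atrial transcripts but was not highest in WT sham 3. Ano10, a member of the anoctamin family, went from 124, 69.6, 43.7 and 55.9 in WT sham to 19.5, 22.7, 23.8 and 31 in WT TAC (CPM; log2 fold change -1.59 ± 0.25 SE, adjusted p = 0.000793), and the ephrin receptor Epha4 from 41.1, 51.7, 93.5 and 53.2 in WT sham to 9.5, 19.8, 21.8 and 30.9 in WT TAC (CPM; log2 fold change -1.54 ± 0.39 SE, adjusted p = 0.0167). Myo5c, Fign, Tmem179 and Gfra4 had sham values under 15 CPM and log2 fold changes of -1.15 ± 0.16, -1.54 ± 0.25, -1.50 ± 0.28 and -1.45 ± 0.24 (SE). Among the 20 largest falls in genes of at least 5 CPM none reached 4-fold, and 9 of the 20 (Klhl33, Kcnj3, Foxo6, Phkg1, Prr29, Abca12, Art5, Gal3st2c and Clcn1) lost the call in at least 1 of the fits that left out a WT library.

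Most tested genes of fatty acid uptake and oxidation were lower, by modest factors. Of 36 tested, 25 were lower and none higher, with a median log2 fold change of -0.47; 12 passed in every fit that left out 1 WT library, and without WT TAC 1 the count was 12. Slc27a1, a fatty acid transporter, was at 418, 292, 323 and 355 CPM in WT sham against 136, 206, 183 and 227 CPM in WT TAC. It fell, with a log2 fold change -0.88 ± 0.16 SE, adjusted p = 0.00141. Mlycd, whose product removes the malonyl-CoA that blocks fatty acid entry into mitochondria, was at 162, 113, 138 and 141 CPM in WT sham against 74.9, 90.2, 89.2 and 82.1 CPM in WT TAC. The fall had a log2 fold change -0.72 ± 0.13 SE, adjusted p = 0.00115. Both subunits of the mitochondrial trifunctional protein fell, Hadha from 1704, 1570.2, 1531 and 1561 in WT sham to 846, 1173, 1137 and 1102 in WT TAC (CPM; log2 fold change -0.58 ± 0.13 SE, adjusted p = 0.0054) and Hadhb fell by 0.54 ± 0.12 SE on the log2 scale. Further along the same pathway Cpt2, which releases fatty acids inside the mitochondrion, fell by 0.48 ± 0.11 SE, the dehydrogenase Acadvl fell by 0.47 ± 0.11 SE, the auxiliary enzyme Decr1 fell by 0.52 ± 0.12 SE and the thiolase Acaa2 fell by 0.73 ± 0.18 SE. Cpt1a, the outer-membrane step in the liver form, was at 39.9 to 43.4 CPM in WT sham and 41.6 to 50.7 CPM in WT TAC (adjusted p = 0.454). The letters AAGGTCA, the core read by estrogen-related receptors, stood in 1 of 33 promoter windows of the list (3.03%), in 2.95% of the windows of tested genes and in 4.08% of all windows.

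Most tested genes for the breakdown of branched-chain amino acids and ketones were lower. Of 24 genes 16 were lower and 1 higher (9 and 1 in every fit that left out 1 WT library, and 9 lower without WT TAC 1), with a median log2 fold change of -0.41. Bckdhb and Bckdha, subunits of the branched-chain ketoacid dehydrogenase, were at 74.2, 75.9, 57.1 and 74.9 CPM in WT sham against 33.9, 41.6, 47.3 and 43.7 CPM in WT TAC (log2 fold change -0.76 ± 0.13 SE, adjusted p = 0.001), and at 77.5, 93.9, 74.3 and 90.7 CPM in WT sham against 47.8, 54.8, 57.1 and 60.2 CPM in WT TAC. This gave a log2 fold change -0.61 ± 0.12 SE, adjusted p = 0.00233. The core subunit Dbt fell by 0.57 ± 0.12 SE on the log2 scale, the phosphatase that activates the complex, Ppm1k, fell by 0.88 ± 0.21 SE, and Pcca, which carries propionyl-CoA on, fell by 0.49 ± 0.10 SE. The gene that rose was Bcat1, the cytosolic transaminase, from 1.22, 1.57, 1.33 and 0.541 in WT sham to 4.25, 2.9, 3.82 and 3.44 in WT TAC (CPM; 3.07-fold, adjusted p = 0.000953). Bcat1 took 0.899% ± 0.422 of the counts of Bcat1 and the mitochondrial form Bcat2 in WT sham and 3.41% ± 0.603 in WT TAC (SD, n = 4 each).

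Against 6.14% lower of all genes tested, 8 of 26 genes of the citric acid cycle and pyruvate were lower (30.8%, median log2 fold change -0.32). So were 10 of 52 nuclear respiratory chain subunits (19.2%, median -0.35) and 1 of 13 mitochondrially encoded subunits (7.69%, median -0.35), and none was higher. Only 3, 1 and none of these passed in every fit that left out 1 WT library; without WT TAC 1 the counts were 3 for the cycle and 1 for the respiratory chain, and with library totals alone 3 and 5. The cycle count was 4 without WT sham 2 or WT sham 4, the respiratory count 5 or 6 without WT sham 1, WT sham 2 or WT TAC 4, and DESeq2 called 17 and 20. The mitochondrially encoded count was 3 without WT TAC 3. Idh3g, a subunit of isocitrate dehydrogenase, was at 548, 563, 482 and 553 CPM in WT sham against 329.8, 402, 386 and 393 CPM in WT TAC. Its level fell, with a log2 fold change -0.51 ± 0.11 SE, adjusted p = 0.00458. Pdp2, the phosphatase that activates pyruvate dehydrogenase, fell by 0.85 ± 0.19 SE on the log2 scale, and Sdhc, an anchor of complex II, fell by 0.46 ± 0.11 SE. The mitochondrial gene was mt-Co1, at 94419, 92692, 77329 and 101520 CPM in WT sham against 59235, 69678, 79522 and 65667 CPM in WT TAC (adjusted p = 0.0328); it lost the call without WT sham 1, WT sham 2, WT sham 4, WT TAC 1, WT TAC 2 or WT TAC 4. The share of mitochondrially encoded counts was lowest in WT TAC 1 (17.1%) and highest in WT sham 4 (25.8%).

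Among 20 metabolic transcription regulators 6 were lower and none higher (median -0.25), of which 1 passed in every fit that left out 1 WT library; 3 were lower without WT sham 4 or without WT TAC 1, and with library totals alone 1 was lower and 2 were higher. Esrra, the estrogen-related receptor that drives mitochondrial genes, was at 299.9, 227, 230.2 and 229 CPM in WT sham against 181, 202, 177 and 166 CPM in WT TAC. It fell, with a log2 fold change -0.44 ± 0.10 SE, adjusted p = 0.00695. Ppara and Ppargc1a, the receptor and the coactivator best known for fatty acid genes, were at 8.72, 17.7, 10.9 and 13.7 CPM in WT sham against 11.6, 14.1, 15.5 and 7.99 CPM in WT TAC, and at 68, 332, 74.1 and 99.8 CPM in WT sham against 104, 120.5, 122 and 138 CPM in WT TAC, and did not pass (adjusted p = 0.9 and 0.741). WT sham 2 held by far the highest Ppargc1a value.

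Of 28 genes of glucose transport, glycolysis and glycogen 3 were higher and 5 lower (10.7% and 17.9%, against 9.70% and 6.14% of all genes tested). Of these 1 higher and 2 lower genes passed in every fit that left out 1 WT library. There were 3 lower without WT sham 1, WT sham 4, WT TAC 1 or WT TAC 3, 9 lower in DESeq2, and 1 higher without WT TAC 1. The sign of the list median depends on the scaling. The platelet form of phosphofructokinase, Pfkp, was at 51.5, 62.4, 81.4 and 56.9 CPM in WT sham against 154, 103, 94.2 and 86.7 CPM in WT TAC. It rose 1.73-fold (log2 fold change 0.79 ± 0.17 SE, adjusted p = 0.00528). Its share of the counts of Pfkp and the muscle form Pfkm was 5.39% ± 1.33 in WT sham and 11.6% ± 4.45 in WT TAC (SD, n = 4 each). The heart form of lactate dehydrogenase, Ldhb, went from 1772, 1545, 1327 and 1577 in WT sham to 986, 1139.7, 1144 and 1074 in WT TAC (CPM; log2 fold change -0.52 ± 0.13 SE, adjusted p = 0.0107), and the share of Ldha in both forms from 31.6% ± 3.11 to 40% ± 2.02. Fbp2, the muscle fructose bisphosphatase, fell by 0.81 ± 0.20 SE on the log2 scale. Irs1, the insulin receptor substrate, was at 54.5, 61.1, 49.4 and 34.4 CPM in WT sham against 28.4, 26.1, 29.5 and 23.7 CPM in WT TAC. The fall had a log2 fold change -0.89 ± 0.14 SE, adjusted p = 0.000438. Chosen after their values were seen, the kinase Akt2 went from 255, 209, 181 and 205 in WT sham to 122, 139, 139 and 158 in WT TAC (CPM; log2 fold change -0.61 ± 0.10 SE), and Tbc1d4, the Akt target that controls glucose transporter traffic, from 94.5, 98.4, 98.6 and 111 in WT sham to 48.2, 56.9, 65 and 69.2 in WT TAC (CPM; log2 fold change -0.75 ± 0.13 SE).

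Of 44 genes of insulin-like growth factor binding and other growth factors 10 were higher and 2 lower (7 and 1 in every fit that left out 1 WT library; median log2 fold change 0.12; 4 lower without WT sham 3). Igfbp2 had 0, 1, 2 and 0 counts in WT sham and 17, 155, 55 and 94 counts in WT TAC. The summed CPM ratio was 93.3 with a 95% interval of 31.6 to 455 (counting error only), and the adjusted p was 0.00119. Igfbp7, a vascular and fibroblast member of the family, rose from a far higher level, at 160.4, 189, 204 and 162 CPM in WT sham against 584, 419.7, 406 and 481 CPM in WT TAC. This was 2.64-fold higher (log2 fold change 1.40 ± 0.16 SE, adjusted p = 2.42e-05). The angiotensin-converting enzyme Ace was at 80.3, 84.7, 87.6 and 68.9 CPM in WT sham against 202, 138, 139 and 169.5 CPM in WT TAC (2.02-fold), the EGF-family ligand Hbegf rose 2.91-fold, pleiotrophin (Ptn) 2.99-fold and endothelin 3 (Edn3) 3.58-fold. Etv4, an ETS factor downstream of receptor tyrosine kinases, had 12, 2, 4 and 2 counts in WT sham and 127, 64, 56 and 59 in WT TAC (13.2-fold, adjusted p = 0.000125); its relative Etv5 was at 14.6 to 16.8 CPM in WT sham and 16.5 to 28.7 CPM in WT TAC and did not pass. Of 15 genes of ETV factors and ERK feedback 2 were higher, Etv4 and Spred1 (1.49-fold), which is 13.3% against 9.70% of all genes tested.

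Of 19 immediate early genes 4 were higher, all in every fit that left out 1 WT library, and another 3 were lower without WT sham 3, with or without WT TAC 4. Myc went from 2.91, 4.4, 2.07 and 2.63 in WT sham to 7.44, 8.63, 6.48 and 9.27 in WT TAC (CPM; 2.65-fold, log2 fold change 1.40 ± 0.23 SE, adjusted p = 0.000598), Egr2 and Egr3 rose 2.62-fold and 2.6-fold, and Ier3 1.71-fold. Fos, the member most often used as a marker of acute activation, was at 13.3, 2.54, 2.29 and 32.2 CPM in WT sham against 3.19, 7.56, 3.37 and 3.73 CPM in WT TAC and did not pass (adjusted p = 0.146). Its sham libraries spread over more than 10-fold, and WT sham 4 and WT sham 1 were the high ones; without WT sham 3 it passed with a lower level in WT TAC. Sprr1a, a small proline-rich protein of stressed cardiomyocytes, had 19, 1, 1 and 1 counts in WT sham and 213, 25, 32 and 52 in WT TAC, with WT sham 1 and WT TAC 1 far above their groups. It lost the call without WT sham 2, WT sham 3, WT sham 4 or WT TAC 1.

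Genes of proteostasis and stress moved in small numbers. Of 23 genes of serine and one-carbon metabolism and the integrated stress response 7 were higher and none lower (3 in every fit that left out 1 WT library, 4 without WT TAC 1; median log2 fold change 0.34). The amino acid transporter Slc7a5 was at 5.89, 6.94, 9.24 and 6.57 CPM in WT sham against 18.9, 13.8, 11.9 and 14.6 CPM in WT TAC (2.06-fold), and the stress cytokine Gdf15 went from 1.22, 2.02, 1.63 and 1.31 in WT sham to 14.4, 5.58, 3.63 and 3.91 in WT TAC (CPM; 4.41-fold, adjusted p = 0.0128). Of 30 endoplasmic reticulum genes 6 were higher and 1 lower (3 and none in every such fit; 3 higher without WT TAC 1, and 10 with library totals alone), among them the retrieval receptor Kdelr3 (1.97-fold) and Edem1, which sends misfolded proteins to degradation (1.65-fold). Of 19 heat shock proteins 2 were higher and 1 lower (10.5% and 5.26%), close to the 9.70% and 6.14% of all genes tested. The number higher was 6 without WT sham 2, 4 without WT TAC 2 and 8 with library totals alone. The higher genes were small heat shock proteins of muscle, Hspb6 and Hspb7, which rose 1.73-fold and 1.45-fold, to 1540.2 ± 280.1 and 3671 ± 615 CPM (SD, n = 4).

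Lysosomal and autophagy genes are the classical targets of TFEB. Of 44 lysosomal genes 7 were higher and 4 lower (15.9% and 9.09%, against 9.70% and 6.14% of all genes tested). Their median log2 fold change was 0.10. Of these 2 higher and 2 lower genes passed in every fit that left out 1 WT library, which were also the counts without WT TAC 1. The cathepsins Ctss and Ctsk rose 2.45-fold and 2.4-fold, while the cholesterol transporter Npc1 was at 42.3, 39, 37.8 and 46.2 CPM in WT sham against 24.9, 29.7, 28.8 and 32.8 CPM in WT TAC. This gave a log2 fold change -0.51 ± 0.12 SE, adjusted p = 0.00742. With library totals alone 14 lysosomal genes were higher and 2 lower. Of 42 autophagy and mitophagy genes 3 were lower and none higher (7.14% lower, close to the 6.14% of all genes tested). DESeq2 called 7 lower. Library totals alone gave 1 lower and 1 higher and also turned the sign of the list median (from -0.12 to 0.0026). Among them the mitophagy kinase Pink1 went from 1124, 904, 683 and 839 in WT sham to 399, 541, 523 and 567 in WT TAC (CPM; log2 fold change -0.81 ± 0.15 SE, adjusted p = 0.00165), the initiating kinase Ulk1 fell by 0.38 ± 0.10 SE on the log2 scale, and Calcoco1 had an adjusted p of 0.0464 and lost the call without WT sham 2, WT sham 4, WT TAC 1, WT TAC 2 or WT TAC 3. Ulk1 lost the call with library totals alone, and the list had 6 lower genes without WT sham 1 or without WT sham 3. Of 28 proteasome and muscle ubiquitin ligase genes 4 were lower (2 in every such fit, and without WT sham 2, WT TAC 1 or WT TAC 2), led by the atrophy ligase Fbxo32 at 123, 145, 125 and 131 CPM in WT sham against 88.5, 83.1, 96.2 and 94.4 CPM in WT TAC (log2 fold change -0.53 ± 0.12 SE, adjusted p = 0.00713) and the factor Foxo4, which fell by 0.44 ± 0.10 SE on the log2 scale.

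Of 30 antioxidant and iron genes 4 were higher and 4 lower (13.3% each, against 9.70% and 6.14% of all genes tested). The single fits that left out 1 WT library gave 1 to 4 on either side, and 2 on each side passed without WT sham 3 and WT TAC 4. Of the called genes 1 higher and 1 lower passed in every such single fit. Those that passed in every fit were heme oxygenase Hmox1 (2.47-fold, from 6.58, 8.29, 8.79 and 4.49 in WT sham to 15.7, 22.6, 16.8 and 14.7 in WT TAC, CPM) and the glutathione transferase Gstm1, which fell from 255, 178, 176 and 196 in WT sham to 88.9, 116, 121 and 139 in WT TAC (CPM; log2 fold change -0.79 ± 0.13 SE, adjusted p = 0.000635) and belongs to a family of near-identical genes. At the cell membrane, 5 of 32 intercalated disc and membrane genes were higher and 3 lower (4 and 2 in every such fit). These are shares of 15.6% and 9.38%, against 9.70% and 6.14% of all genes tested. The fibronectin receptor Itga5 rose 1.8-fold and talin (Tln1) 1.48-fold. The desmosomal cadherin Dsg2 fell by 0.72 ± 0.12 SE on the log2 scale, from 76.8, 87.9, 72.8 and 98.7 in WT sham to 40.5, 55.2, 55.8 and 52.9 in WT TAC (CPM). Among 45 cytosolic ribosomal proteins 1 was higher (Rpl3, 1.39-fold; 3 without WT sham 1), among 19 clock genes 1, among 25 genes of cholesterol and fatty acid synthesis 2 higher (5 with library totals alone) and 1 lower, and among 10 creatine and adenylate kinases 1 lower (Ak4, which fell by 0.45 ± 0.08 SE). Shares higher were 2.22% for ribosomal, 5.26% for clock and 8% for synthesis genes, all under the 9.70% of all genes tested. Shares lower were 4% for synthesis genes and 10% for the kinases, against 6.14%.

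Transcripts of other tissues gave few calls, and the atrial calls depended on which libraries were kept. Of 11 atrial transcripts tested 1 was lower (Gpr22, above), which is 9.09% against 6.14% of all genes tested. In all, 9 had a negative log2 fold change (median -1.30). The sums were 156.4 to 4260 CPM in WT sham and 255.8 to 1684 CPM in WT TAC. Without WT TAC 4, 6 members were lower, and without WT sham 3 and WT TAC 4 there were 4 lower and 1 higher. With both left out, Myl7 still took 84.7 and 44.0 CPM (without TMM factors) in WT sham 2 and WT sham 4. It took 0.832 CPM in WT sham 1 and at most 4.53 CPM in WT TAC 1 to 3. None of 5 erythrocyte, 4 adipocyte or 6 skeletal muscle genes tested passed, and erythrocyte sums were 325.6 to 1247 and 180.3 to 498.6 CPM. Of 8 Schwann cell and nerve genes 1 was lower (12.5%), with 4 lower without WT TAC 4 and 3 without WT sham 3 and WT TAC 4. Of 2 mesothelial genes 1 was higher. The summed level of 7 cardiomyocyte markers was 52010 to 60890 CPM in WT sham and 41470 to 50690 CPM in WT TAC, without overlap, while endothelial sums (2988 to 3333 and 3129 to 3900 CPM) overlapped and smooth muscle and pericyte sums (3423 to 4203 and 4253 to 5424 CPM) were higher in each TAC library. The part that shifts in cell makeup play in the lists above was not tested.

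WT TAC libraries did not rank alike across lists. WT TAC 1 was highest of the 4 for mitosis, DNA replication, Z-disc genes and interferon-response genes and lowest for fatty acid, branched-chain, citric acid cycle, respiratory chain and channel genes. WT TAC 4 was highest for fibrillar collagens (mean log2 difference from the WT sham mean 1.75, against 1.73, 1.11 and 1.24 in WT TAC 1 to 3), matricellular proteins (1.81), small leucine-rich proteoglycans (1.56, against 0.21 to 0.50 in the other 3) and complement (0.90, against 0.20 to 0.29), and it was lowest for mitosis. WT TAC 4 was also the TAC library with the most atrial transcripts, and WT sham 3, the sham library with the most, had the highest sham value for fibrillar collagens (0.321), matricellular proteins (0.38) and complement (0.435). The part that atrial tissue plays in these values was not tested.

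**Figure D5:**
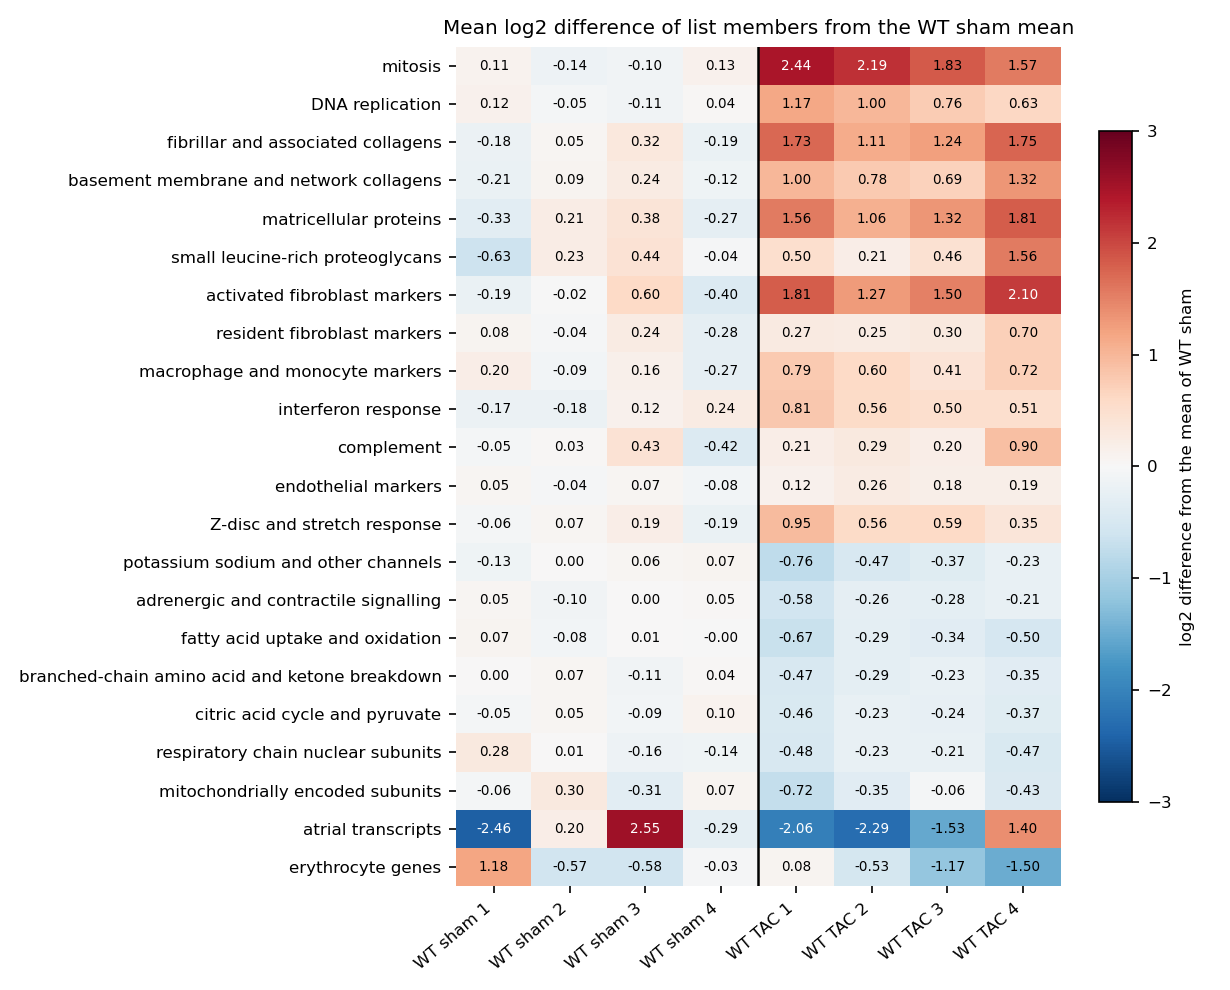
Mean log2 difference of the tested members of 22 gene lists from the mean of the 4 WT sham libraries, for each of the 8 WT libraries (columns; the line separates sham from TAC; red higher, blue lower). All TAC columns are above all sham columns for mitosis (1.57 to 2.44) and fibrillar collagens (1.11 to 1.75), while atrial transcripts run from -2.46 to 2.55 within the sham libraries.

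Whether the response of WT ventricles differed from that of ventricles without Tfeb in cardiomyocytes was tested with an interaction term for each of the 15206 genes. No gene passed in edgeR (0% of genes tested), with 715 at an unadjusted p under 0.05, and none passed in limma voom, with 759 at an unadjusted p under 0.05. About 1 in 20 genes have such a p when none differ, and neither count exceeds that share. DESeq2 passed 3 genes, among them Socs3 and Cnksr1. Among the 5 smallest p-values in edgeR were those of Socs3, Cnksr1, Irs1 and C2cd2 (adjusted p 0.801 for Socs3 and Cnksr1 and 0.946 for Irs1 and C2cd2). Socs3 had a log2 fold change of 1.61 in WT and 0.13 in cKO, and Cnksr1, a scaffold of Ras signalling, 1.49 and 0.36. Irs1 had a log2 fold change of -0.89 in WT and -0.05 in cKO, with cKO means of 35.1 ± 4.29 and 34 ± 2.69 CPM. For C2cd2 the values were 0.35 and -0.37. Without WT sham 3 and WT TAC 4, 2 genes passed in edgeR, among them Cnksr1 (adjusted p = 0.0265).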

How the data were processed

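Bulk RNA of left ventricles was extracted with TRIzol and columns, and unstranded or stranded preparation was not given in the sources used here; libraries were sequenced paired-end, per the labels' protocols. The authors deposited 1 table of raw read counts per gene for all 16 libraries, which the submitters' processing notes tie to featureCounts 2.0.6, the aligner HISAT2 2.0.5, fastp 0.22.0, SAMtools 1.21, FastQC and the build GRCm39 (mm39). Symbols were taken from the reference tables provided and matched 51880 of 57186 gene IDs, which hold 99.5% of counts.

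Groups came from the labels. The counts of all 16 libraries were fitted together with edgeR 4.0.16 (R 4.3.3): filterByExpr left 15206 genes, TMM factors, robust quasi-likelihood fit with 4 group means and 12 residual degrees of freedom, biological coefficient of variation 16.5%. The contrasts were WT TAC minus WT sham and the interaction of surgery with genotype, with Benjamini-Hochberg adjustment over all tested genes and a threshold of 0.05. The same functions were tested on simulated counts. CPM are TMM-normalised, and means carry the SD. The p-value of a gene sets its difference against the spread between libraries within groups, which was estimated over all 4 groups, cKO included.

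Of 1431 entries in 56 gene lists 1425 matched. Some genes are not reported here. The comparison and the lists were chosen with earlier results of these data known. Genes were named if they were among the 20 largest rises or falls (adjusted p under 0.05, mean of at least 5 CPM in a WT group, no overlap, named genes only), members of a list, among the 5 smallest interaction p-values, or Tfeb; any others are said to have been chosen after their values were seen. List members that are abundant or well known were preferred over strictly the smallest p-values, as were members whose call did not depend on 1 library.

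Alternatives were DESeq2 1.42.0 size factors and Wald test, library totals, no count filter, at least 1 CPM in 4 libraries, limma 3.58.1 voom, the 8 WT libraries alone, a replicate block, removal of mitochondrially encoded genes and each WT library left out. Leaving out WT sham 3 and WT TAC 4 together was added after seeing the data. Replicate numbers were checked for pairing by correlating deviations from the group means; same-numbered WT libraries gave r from -0.186 to 0.0916, so they were not treated as pairs. Intervals of ratios of summed CPM are 95% and cover counting error only. Promoters are RefSeq sequences of GRCm38.p6. No 2 libraries held identical counts.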

Additional observations from a re-analysis of the deposited data

Results flagged for a closer look

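In groups of 4 libraries, a sample was listed when its gap to the nearest other library divided by the group's range exceeded Dixon's 95% critical value. Of 450 groups checked (each named gene and library property in WT sham and in WT TAC) 31 were listed; chance alone lists about 1 in 20 groups. All values are TMM-normalised CPM unless stated.

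WT TAC 1 stood apart from the other TAC libraries most often. It was high for Hbegf (100 CPM), Irf7 (45.7), Itga5 (182), Mx1 (4.05), Serpinh1 (528), Sprr1a (14.2) and Etv5 (28.7), and low for Atp2a2 (8920), Ppm1k (36.7) and Sdhc (306). The other TAC libraries listed were WT TAC 4, high for decorin (Dcn, 839) and elastin (Eln, 256), WT TAC 3, high for Rgs5 (524), and WT TAC 2, high for Fos (7.56).

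WT sham 3 was high for atrial transcripts, with 0.425% of its counts, and for Nppa (1220 CPM), Col3a1 (332), Emilin1 (51.9) and Fbn1 (104), and low for Bckdhb (57.1). The part of atrial tissue in its matrix values was not tested. WT sham 1 was high for Sprr1a (1.45) and Esrra (300) and low for Kcnj12 (22.4) and Mylk3 (517). WT sham 2 was high for Ppargc1a (332) and low for Trp53 (21). WT sham 4 was high for Gal3st2c (10.4), Gdf6 (1.39), Pclaf (0.928), Rgs5 (482) and Tmem179 (8.04).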

How the results depend on the processing

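The number of called genes depended on WT TAC 1, on the scaling and on the tool. Leaving out 1 WT library at a time gave 897 to 1485 higher and 337 to 971 lower genes; both lowest counts came without WT TAC 1, and without WT sham 4 there were 588 lower genes. Library totals gave 2170 higher and 432 lower genes, no count filter 1335 and 788, the 8 WT libraries alone 1193 and 650, DESeq2's Wald test 1665 and 1327, and limma voom 1443 and 924. The fits that left out 1 WT library gave 12 to 24 lower fatty acid genes and 9 to 16 lower branched-chain genes, both lowest without WT TAC 1. The interaction gave 3 genes with DESeq2 and 2 without WT sham 3 and WT TAC 4. Same-numbered libraries did not deviate together (0 of 4 WT sham libraries correlated best with the WT TAC library of its own number), and the replicate block with the 8 WT libraries gave 782 higher and 330 lower genes, 290 called list members, 11 fatty acid genes, 20 interferon-response genes and no metabolic transcription regulator; the cause was not tested. Of 202 called genes named here 160 passed under every alternative and none changed sign. Naming preferred members whose call did not depend on 1 library, so this share does not describe all called genes. Of all 2409 called genes, 833 higher and 296 lower genes passed in each of the 8 fits that left out 1 WT library. Genes near no change that did not pass turned sign: Ppara was at 0.0619 (log2 fold change) with library totals and 0.0362 without WT sham 3 and WT TAC 4, Ppargc1a at 0.0843 in limma voom and 0.109 with the replicate block. Leaving out 1 library gave -0.20 to 0.14 for Ppara, -0.48 to 0.59 for Ppargc1a and -0.15 to 3.33 for Nppa. With 12946878 to 16347388 counts per WT library, genes under 1 CPM rest on few counts, so that folds of Igfbp2, Cthrc1, Etv4 and Sprr1a are known only loosely. Counting intervals leave out the spread between libraries and are too narrow as bounds on these folds. The fitted log2 fold change of Sprr1a was 3.64 ± 1.01 SE.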
